A study of Mus musculus with 6 samples.

Results

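The genes of motile cilia were followed in the spinal cord of C57BL/6 wildtype mice. They were taken as every gene whose symbol starts with Dnah and a digit, Dnaic, Dnali, Cfap or Rsph, together with Foxj1, Rfx2, Rfx3, Ccdc39, Ccdc40, Hydin and Tekt1, with at least 10 counts summed over all 6 libraries. This rule left 46 of the 43432 genes in the tables. A further 8 genes matched by name had no count, and 10, Tekt1 among them, had 1 to 9 counts. The SCI group (n = 3 mice) had a contusion of 50 kdyn on one side of the cord at cervical level 5, and the tissue was taken 4 h later. The sham group (n = 3 mice) had only the laminectomy, the opening of the bone that both groups shared. The sources used here give neither the ages of the mice nor when the sham tissue was collected. The question was whether these genes differed between injured and sham cord within hours of the blow.

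Ependymal cells line the central canal of the cord and carry motile cilia that move cerebrospinal fluid. Each motile cilium is built around an axoneme, a ring of doublet microtubules with a central pair, on which dynein arms generate the beat and radial spokes and central pair projections control it. Foxj1 and the RFX factors are the transcription factors known for switching on this set of genes. In a bulk library of whole cord, fewer ependymal cells and less RNA per ependymal cell cannot be told apart. Nor do the counts show which cells the RNA of a member came from, ependymal or other.

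The libraries held 3407176 to 11543633 counts, and 41 to 46 members were detected in each. A gene with no count in a library could still have been present at up to 3 counts, equal to 0.260 to 0.880 CPM (counts scaled to the library total) depending on the library, which covers counting error only. Levels below are CPM scaled by TMM, edgeR's correction for library composition, as mean ± SD over 3 mice. Neuron, astrocyte and oligodendrocyte markers were abundant in every library. All 23 listed hepatocyte markers were also present, at a summed 63126 to 140972 CPM in sham and 80513 to 97189 CPM in SCI, and sham 2 was the highest and sham 3 the lowest of the 6 libraries. Among other ciliated tissues, 5 of 10 listed sperm genes had no count and none reached 10 counts. Of the 10 choroid plexus markers, 9 had a count and 6 had at least 10. Ttr (means of 16840 CPM in sham and 17588 CPM in SCI), which also stands on the hepatocyte list, Prlr (4132 counts in all) and Aqp1 (3262 counts in all) had the most counts. Within the sham group Ttr, Prlr and Aqp1 were each highest in sham 2 and lowest in sham 3, as the summed hepatocyte markers were. Kcnj13, Slc4a5 and Clic6 had 33 to 53 counts, Kl, Folr1 and Kcne2 had 1 to 6, and Otx2 had none. The part of choroid plexus in the members' values was not tested.

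Ependymal markers outside the rule were present but mostly sparse. Ccdc153, a ciliated cell marker, averaged 1.89 ± 0.699 CPM in the sham mice and 2.08 ± 0.204 CPM in the SCI mice. Tmem212, another, averaged 0.642 ± 0.323 and 0.428 ± 0.268 CPM. Sntn, a gene of the cilium tip, had no count. Cfap36, Cfap97, Cfap298 and Rfx3 together held 67.7% of the members' 6772 counts, and 38 members had fewer than 100 counts over all libraries.

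No motile cilia gene passed the test between SCI and sham. Of the 46 members, 20 passed the filter on low counts, and by edgeR's quasi-likelihood test at an adjusted p under 0.05 none of them was higher, against 0.885% of all 13560 genes tested, and none was lower, against 0.0442% (0.929% in either direction). An unadjusted p under 0.05 was found for 1 of the 20, Rfx3, against 7.38% of all genes. The DESeq2 Wald test and limma voom also called none, with 1 and 2 members at an unadjusted p under 0.05. The fitted log2 fold change was negative in 15 of 20 members and in 50.3% of all genes tested. Its median was -0.20 over the members and -0.002 over all genes. Without sham 1 it was negative in 11 of 20 members. The groups did not overlap in 2 of the 20 members, Rfx3 with SCI below sham (5.94% of all genes) and Dnaic2 with SCI above sham (7.73%).

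The precision was limited by the low counts. The median standard error of a log2 fold change was 0.45 over the 20 members and 0.25 over all genes, at a median level of 2.18 and 15.3 CPM. For 4 of the 20 members the 95% interval excluded a 2-fold change in both directions. It excluded a 2-fold fall in 7 and a 2-fold rise in 15, so that for 13 members a 2-fold fall lay within the interval at this depth.

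**Figure D1:**
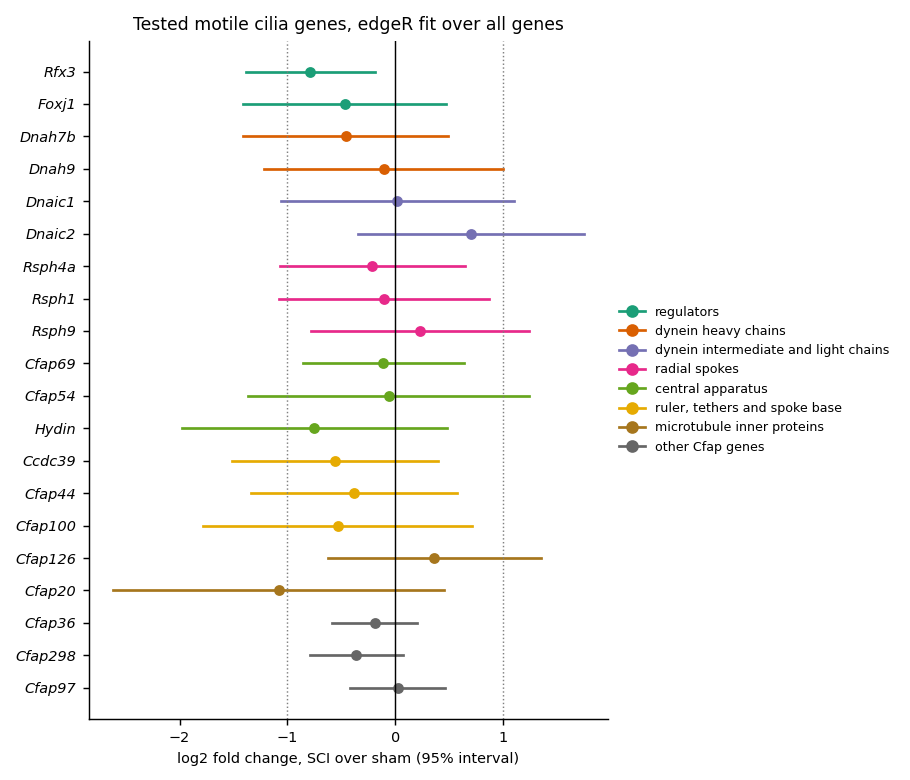
Log2 fold change of SCI over sham for the 20 tested motile cilia genes, coloured by role, with 95% intervals from the edgeR fit over all genes. The dotted lines mark a 2-fold change, and the interval of Rfx3 alone leaves out 0, without passing adjustment.

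Among the 3 transcriptional regulators, the best covered was Rfx3. This gene, a winged helix factor that binds promoters of ciliary genes, lies at chromosome 19, 27761721 to 28011166 (GRCm38; ENSMUSG00000040929). It was at 11.7, 8.76 and 9.22 CPM in the sham libraries and at 6.17, 6.64 and 4.16 CPM in the SCI libraries. Every SCI library was below every sham library. The log2 fold change was -0.79 ± 0.28 (SE; 95% interval -1.39 to -0.19), and it did not pass adjustment over all genes (edgeR adjusted p = 0.428). Leaving out single libraries gave -0.91 to -0.64 and no adjusted p under 0.320.

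Rfx2, a close relative of Rfx3 at chromosome 17, 56775897 to 56831013 (ENSMUSG00000024206), had 53 counts in all and did not pass the filter. Its levels were 1.84, 2.02 and 1.08 CPM in sham and 0.484, 0.866 and 0.793 CPM in SCI, which did not overlap. Fitted with no filter on low counts, its log2 fold change was -1.26 ± 0.69 (SE; edgeR adjusted p = 0.749). Foxj1, the forkhead factor that directs motile cilia formation, lies at chromosome 11, 116330704 to 116335399 (ENSMUSG00000034227). Sham libraries held 2.76, 3.76 and 3.52 CPM of it, and SCI libraries 3.38, 2.60 and 0.991 CPM. The groups overlapped, and SCI 3, with 5 counts, stood below the other 5 libraries. The log2 fold change of Foxj1 was -0.47 ± 0.44 (SE; edgeR adjusted p = 0.905), and -0.16 without SCI 3. Summed over the 3 regulators, the level was 14.9 ± 1.26 CPM in sham and 8.70 ± 2.38 CPM in SCI. These sums did not overlap between groups with TMM, with total counts or with DESeq2 size factors. Rfx3 held 332 of their 509 counts, with means of 9.89 CPM in sham and 5.66 CPM in SCI, so the sums largely repeat Rfx3.

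Other RFX genes and regulators of multiciliated cells were taken from a list of 20. None of its 9 tested genes was called by edgeR (0.929% of all genes), DESeq2 or limma voom, and 1 had an unadjusted p under 0.05 (7.38%). That gene was E2f4, a partner of the multiciliation programme, with 5.97 ± 2.69 CPM in the sham mice, 2.68 ± 1.32 CPM in the SCI mice and overlapping groups (log2 fold change -1.15 ± 0.43, edgeR adjusted p = 0.470). Rfx1 and Rfx4, further RFX factors, had log2 fold changes of 0.14 ± 0.26 and -0.14 ± 0.23. Rfx5 and Rfx7 were at 0.24 ± 0.22 and -0.29 ± 0.24. Rfx5 was the 1 gene of the 9 with SCI above sham without overlap (7.73% of all genes tested), and none lay below (5.94%). Mcidas and Gmnc, which start the programme, had 2 and 9 counts over all libraries.

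The promoters of the members were searched for the letters that these factors are known to bind. RefSeq windows of 250 bases before to 50 after a transcript start (GRCm38.p6) were found for 37 of the 46 members. Windows were not found for Cfap53, Cfap54, Cfap65, Cfap97, Dnah2os, Foxj1, Rsph1, Rsph10b and Rsph4a. The core RFX letters GTTGCC, on either strand, stood in the windows of 15 of the 37 members (40.5%), against 14.1% of all 27025 genes with a window. By window the shares were 40.0% of 40 and 12.5% of 32851. The full X-box, the same letters followed by their reverse complement after a gap of 2 bases, stood in 1 member, Cfap298, and in 0.111% of all genes. The forkhead letters GTAAACA stood in 2 members, Cfap20 and Cfap43 (5.41%), against 4.05% of all genes. These are matches of letters and not measured binding. Rfx2 itself holds the core RFX letters, and in Rfx3 they lie after the start. The stretches below come from the genes described here that have a match before the start. They are written 5′ to 3′ on the strand of the gene, with the matched letters in capitals.
Rfx2 chr17:56831099-56831144, minus strand: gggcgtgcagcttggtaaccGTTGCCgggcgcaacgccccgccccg
Cfap298 chr16:90935016-90935045, minus strand: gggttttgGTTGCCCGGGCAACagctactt
Cfap298 chr16:90934896-90934925, minus strand: tttgactGTTGCCcctGGCAACagccactt
Dnaic2 chr11:114727373-114727418, plus strand: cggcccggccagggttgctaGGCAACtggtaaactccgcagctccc
Dnah7b chr1:46066670-46066715, plus strand: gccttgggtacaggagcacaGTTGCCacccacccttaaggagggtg
Hydin chr8:110266944-110266976, plus strand: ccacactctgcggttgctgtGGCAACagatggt
Cfap44 chr16:44394650-44394798, plus strand: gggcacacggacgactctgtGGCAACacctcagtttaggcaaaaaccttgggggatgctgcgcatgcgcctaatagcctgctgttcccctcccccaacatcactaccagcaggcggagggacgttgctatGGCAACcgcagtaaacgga
Cfap20 chr8:95434938-95435071, minus strand: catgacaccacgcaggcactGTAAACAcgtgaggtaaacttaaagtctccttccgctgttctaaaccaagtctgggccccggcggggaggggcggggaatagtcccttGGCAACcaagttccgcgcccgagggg
In GENCODE M21 the Cfap298 stretches lie in annotated exons of Cfap298, and an exon of 4930534H18Rik on the opposite strand covers part of the same region. That of Dnah7b lies in the gene outside its exons, and that of Hydin lies in an exon of Gm26832. Those of Dnaic2 and Cfap44 reach 11 and 3 bases into an exon of their gene, and those of Rfx2 and Cfap20 lie in no annotated gene.

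Dynein heavy chains, the motor subunits of the arms, numbered 11 members with 368 counts in all, and 2 passed the filter. Dnah7b, an inner arm chain, was at 2.36, 2.98 and 1.63 CPM in sham and at 2.06, 1.73 and 1.39 CPM in SCI (log2 fold change -0.46 ± 0.45). It shares near-identical sequence with Dnah7a and Dnah7c, so reads between them are uncertain. Dnah9, an outer arm chain, was at 2.49, 1.16 and 1.90 CPM in sham and at 0.967, 2.02 and 2.18 CPM in SCI (-0.11 ± 0.52). Both genes overlapped between groups. With no filter on low counts, the fitted values were negative in 9 of the 11. Dnah2os, an RNA named for lying opposite Dnah2, fell under the rule by its name and had 13 counts.

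The intermediate chains Dnaic1 and Dnaic2 anchor the outer arm motors. Dnaic2, at chromosome 11, 114727408 to 114757889 (ENSMUSG00000034706), was at 1.18, 1.25 and 0.813 CPM in sham and at 1.57, 2.02 and 1.98 CPM in SCI. Here every SCI library was above every sham library, the opposite order to Rfx3. Its log2 fold change was 0.70 ± 0.49 (SE; 95% interval -0.35 to 1.75; edgeR adjusted p = 0.854), resting on 62 counts. Dnaic1 overlapped between the groups, with 1.94 ± 0.957 CPM in sham and 1.82 ± 0.422 CPM in SCI (0.02 ± 0.51). Dnali1, the light intermediate chain of the inner arm, had 21 counts.

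Of the 4 radial spoke genes, 3 passed the filter and all 4 overlapped between groups. Rsph4a, of the spoke head, was at 5.25, 3.95 and 2.17 CPM in sham and at 3.14, 2.45 and 4.76 CPM in SCI. Rsph1, also of the spoke head, was at 1.44, 2.41 and 2.98 CPM against 2.42, 1.73 and 1.98 CPM. Their log2 fold changes were -0.21 ± 0.40 and -0.10 ± 0.46, with 95% intervals of -1.07 to 0.64 and -1.08 to 0.87. Rsph9, a further spoke head gene, had a log2 fold change of 0.23 ± 0.47. Rsph10b, on 51 counts, averaged 0.793 ± 0.399 CPM in the sham mice and 1.67 ± 0.737 CPM in the SCI mice, and with no filter its log2 fold change was 1.12 ± 0.69 (edgeR adjusted p = 0.813). The summed level of the 4 spoke genes was 8.81 ± 0.90 CPM in sham and 9.42 ± 1.28 CPM in SCI.

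For the central apparatus, whose projections regulate the arms through the spokes, all 3 tested members had negative fitted values. Hydin, a large projection protein, was at 1.84, 1.16 and 2.44 CPM in sham and at 0.484, 1.44 and 1.19 CPM in SCI (log2 fold change -0.75 ± 0.58, edgeR adjusted p = 0.871). Leaving out single libraries moved Hydin from -1.12 (without SCI 2) to -0.37 (without SCI 1). Cfap69 had 4.26 ± 1.01 CPM in sham and 3.78 ± 0.756 CPM in SCI (-0.11 ± 0.35), and Cfap54 1.74 ± 1.02 and 1.49 ± 0.731 CPM (-0.06 ± 0.61). All 3 overlapped between groups.

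Ccdc39 forms, with Ccdc40, the ruler that sets the repeat of arms and spokes along the doublet. It was at 3.81, 2.98 and 5.96 CPM in sham and at 4.11, 1.30 and 2.78 CPM in SCI (log2 fold change -0.56 ± 0.45, edgeR adjusted p = 0.877), and the value was -1.04 without SCI 1 and -0.22 without SCI 2. Cfap44, of the tether that holds an inner arm, was at 3.55, 1.64 and 2.98 CPM in sham and at 1.93, 2.02 and 2.18 CPM in SCI (-0.38 ± 0.45, with -0.70 without sham 2 and -0.11 without sham 1). The SCI values of Cfap44 lay between the lowest and the highest sham value, and the groups of Ccdc39 overlapped too.

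Proteins inside the doublet microtubules gave values of both signs. Cfap20, of the inner junction, was at 1.97, 1.93 and 2.98 CPM in sham and at 0.967, 0 and 2.38 CPM in SCI. SCI 2 had no Cfap20 count, which at that depth allows up to 0.462 CPM by library total. The log2 fold change was -1.08 ± 0.72 (SE; edgeR adjusted p = 0.833), and leaving out single libraries moved it from -2.08 (without SCI 3) to -0.47 (without SCI 2). Cfap126, also called Flattop, averaged 1.91 ± 0.227 CPM in the sham mice and 2.48 ± 1.01 CPM in the SCI mice (0.36 ± 0.46, and 0.028 without SCI 3).

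**Figure D2:**
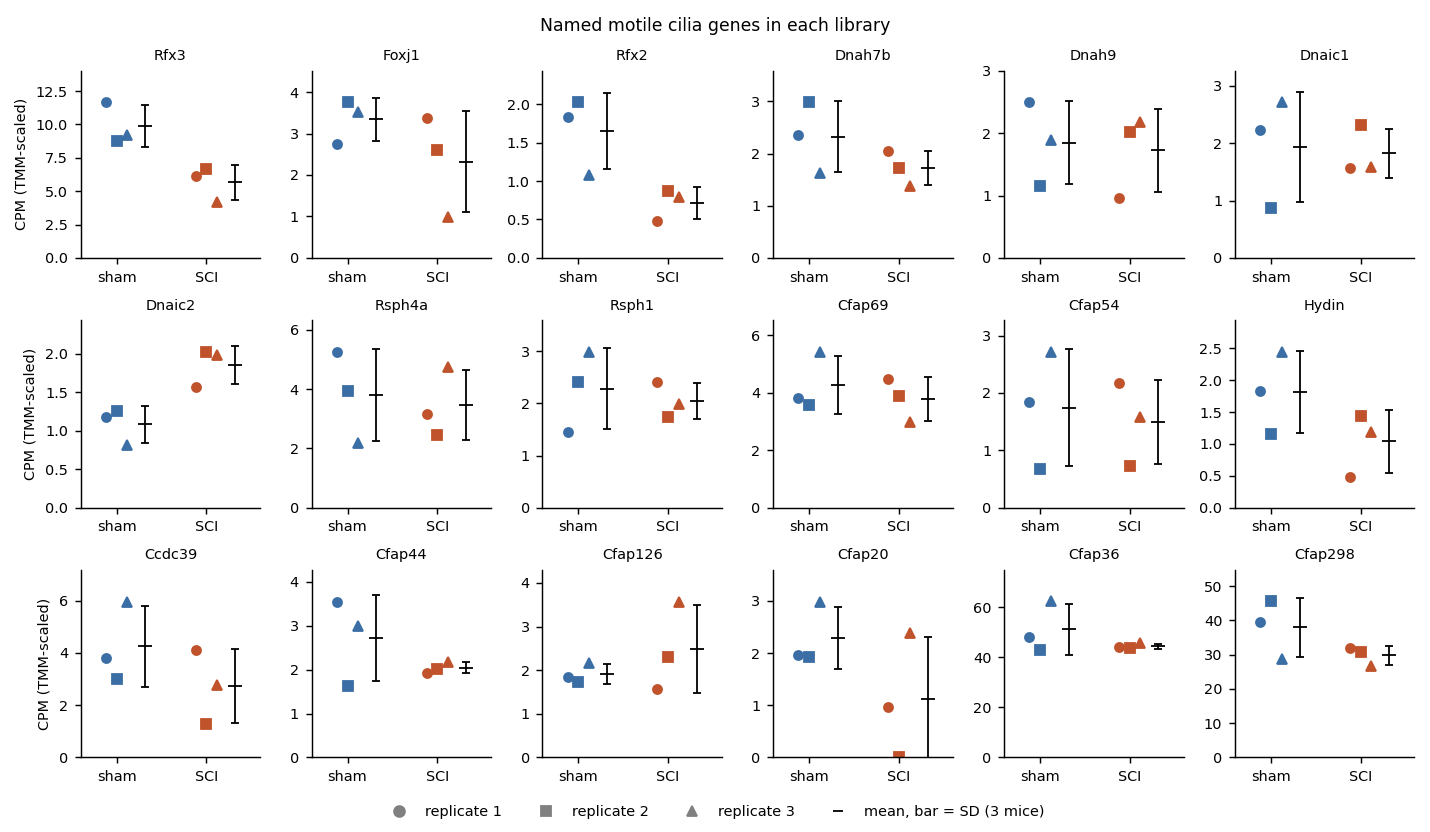
Level of the 18 named motile cilia genes in each library (TMM-scaled CPM, each panel on its own axis from 0), with one symbol per replicate number and the mean and SD of 3 mice beside them. Rfx3 and Rfx2 sit lower in every SCI library than in any sham library, Dnaic2 sits higher, and the groups overlap in the other 15.

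The remaining Cfap genes included the best covered members. Cfap298, an assembly factor of dynein arms, was at 39.7, 45.5 and 28.7 CPM in sham, with an SCI mean of 29.8 ± 2.86 CPM and overlapping groups (log2 fold change -0.36 ± 0.20; 95% interval -0.79 to 0.07; edgeR adjusted p = 0.754). Cfap36, a partner of the ciliary GTPase Arl3, was at 48.3, 42.8 and 62.4 CPM in sham and at 44.0, 43.9 and 45.6 CPM in SCI (-0.19 ± 0.18; 95% interval -0.58 to 0.20). Within sham, Cfap298 followed the order of the summed hepatocyte markers, and Cfap36 the reverse order. With the hepatocyte level as a covariate, Cfap298 was at -0.29 ± 0.16 and Cfap36 at -0.22 ± 0.14. The part of hepatocyte RNA in their values was not tested. Cfap97, not named by the rule for genes given in full, had a log2 fold change of 0.02 ± 0.21 (95% interval -0.42 to 0.46). These 3 genes and Cfap69 are the 4 whose intervals leave out a 2-fold change either way.

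Summed over all 46 members, the level was 181, 162 and 190 CPM in sham libraries 1 to 3 and 151, 146 and 150 CPM in SCI libraries 1 to 3. The SCI sums were 83.8% of the sham sums on average and did not overlap them with TMM or with DESeq2 size factors. They did overlap when scaled to total counts (182, 146 and 206 CPM in sham, 151, 155 and 141 CPM in SCI). Without the other Cfap genes, the sums of the remaining 41 members averaged 67.7 ± 10.5 CPM and 54.0 ± 2.76 CPM, again without overlap except when scaled to total counts. With TMM the groups barely separated, with 55.8 CPM in sham 2 and 55.7 CPM in SCI 3. That gap is smaller than the difference in Rfx3 alone, which was at 8.76 and 4.16 CPM in these libraries. By role, the SCI mean was 58.4% of the sham mean for the regulators, where Rfx3 held most of the counts. It was 72.7% for the heavy chains, 74.9% for the ruler, tethers and spoke base and 82.8% for the central apparatus. The other Cfap genes were at 86.2%, the inner proteins at 88.2%, the spokes at 107% and the intermediate and light chains at 114%.

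**Figure D3:**
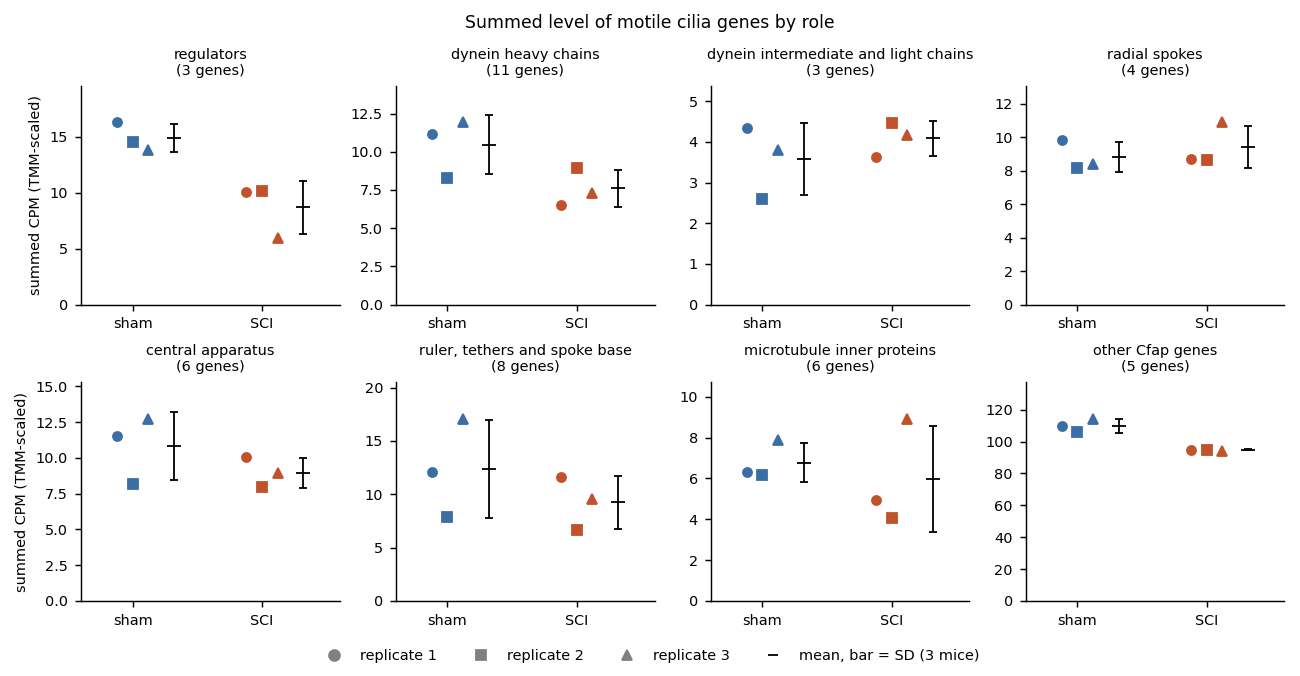
Summed TMM-scaled CPM of the members of each role in each library, with mean and SD of 3 mice. Regulators and the other Cfap genes do not overlap between groups on this scaling, while the 6 further roles do. Scaled to total counts, the other Cfap genes overlap too.

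The libraries within a group differed. Of the 20 tested members, 10 were highest in sham 3, against 23.1% of all tested genes, and 6 were lowest in sham 2, against 23.3%. Sham 3 also had the highest summed neuron and astrocyte markers (7312 and 3860 CPM) and the lowest hepatocyte markers, and sham 2 the reverse (5089 and 2641 CPM). With the hepatocyte level as a covariate, the members' median log2 fold change was -0.20, as without it, and none was called by edgeR.

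**Figure D4:**
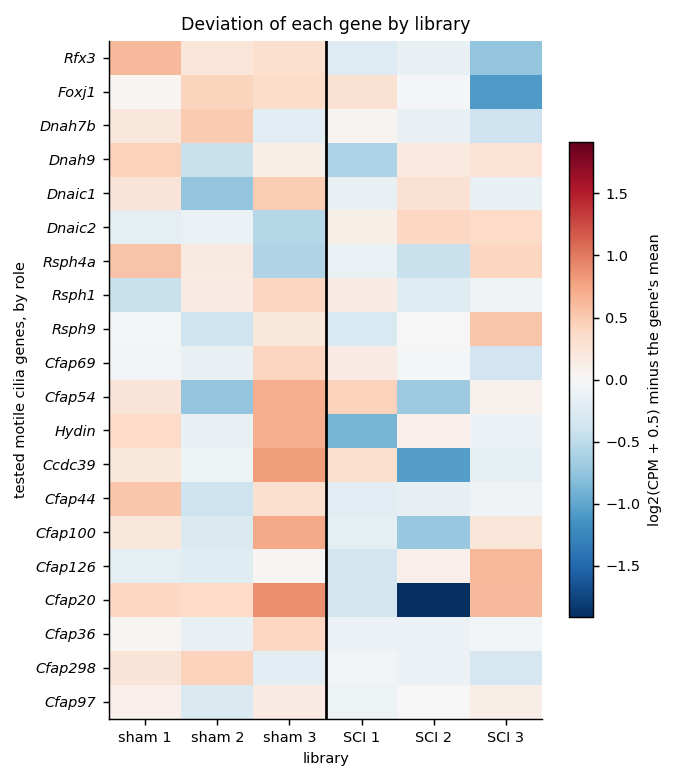
Each tested motile cilia gene's log2(CPM + 0.5) minus its own mean, by library, with red above and blue below that mean. Red is most frequent in sham 3, where 10 of the 20 genes have their highest value, and the deep blue cell is Cfap20 in SCI 2, at 0 counts.

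With no filter on low counts, all 46 members could be fitted. None was called by edgeR over 21524 genes, against 0.846% higher, 0.195% lower and 1.04% either way of all genes, and Rfx3 alone had an unadjusted p under 0.05 (7.23% of all genes). Fitted values were negative in 34 of 46 and in 50.3% of all genes, with a median of -0.34 over the members and -0.003 over all genes. The groups did not overlap in 3 members with SCI below sham (Rfx2, Rfx3 and Dnah2, which had 19 counts; 5.02% of all genes) and in Dnaic2 with SCI above sham (6.29%).

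Other genes of cilia came from lists written for comparison. Over all genes tested, edgeR called 0.929%, 7.38% had an unadjusted p under 0.05 and 50.3% had a negative value. Of 52 further axoneme genes, 21 were tested and none was called by edgeR, DESeq2 or limma voom or had an unadjusted p under 0.05, with 13 negative and a median of -0.14. Of 13 dynein arm assembly factors, 8 were tested, none was called by any of the 3 tools, none had an unadjusted p under 0.05, and 4 were negative. Genes of transport along the cilium, the intraflagellar transport particles and their partners, also serve the immotile primary cilia of neurons and glia. Of 42, 35 were tested and none was called by edgeR, DESeq2 or limma voom, 5 had an unadjusted p under 0.05 and 25 were negative (median -0.19). The groups did not overlap in 9 of the 35, each with SCI below sham (5.94% of all tested genes). Hspb11, a transport particle subunit, had the smallest p among them, with 5.22 ± 0.912 CPM in the sham mice and 2.15 ± 0.673 CPM in the SCI mice (log2 fold change -1.27 ± 0.38, edgeR adjusted p = 0.249).

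Of the 16 ependymal markers outside the rule, 10 were tested. By edgeR 1 of them was called, higher in SCI, against 0.885% of all genes tested. DESeq2 and limma voom also called it. That gene, Sox9, a transcription factor that ependymal cells share with astrocytes, rose from 44.7 ± 3.72 CPM to 83.2 ± 12.2 CPM, a log2 fold change of 0.90 ± 0.18 (edgeR adjusted p = 0.0215). It no longer passed the test when sham 1 (adjusted p = 0.175), SCI 1 (0.181) or SCI 2 (0.147) was left out, nor with total counts (0.0563) or a replicate block (0.164). Vim, an intermediate filament of ependyma and other glia, averaged 47.9 ± 4.15 and 67.4 ± 18.7 CPM (0.49 ± 0.21, edgeR adjusted p = 0.599). Fam183b, a ciliary gene, averaged 1.06 ± 0.272 CPM in the sham mice and 2.01 ± 0.271 CPM in the SCI mice (0.95 ± 0.50, edgeR adjusted p = 0.729). Its SCI values lay above sham without overlap, as in 7.73% of all genes tested. The median of the 10 tested markers was 0.25, with 2 of 10 values negative. Markers under the filter mostly went the other way when fitted with no filter, on 5 to 51 counts each. Tmem212, Meig1, 1700012B09Rik and Pifo were at -0.63, -0.63, -1.31 and -1.84, and Mia was at 0.41. The 10 tested astrocyte markers had a median of 0.04, with none called by edgeR and none at an unadjusted p under 0.05. Among them Gfap was above sham in every SCI library (7.73% of all genes tested) and Gja1 below (5.94%). Rarres2, at 510 ± 165 and 534 ± 125 CPM, is also made by liver and made up most of the list's summed level.

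**Figure D5:**
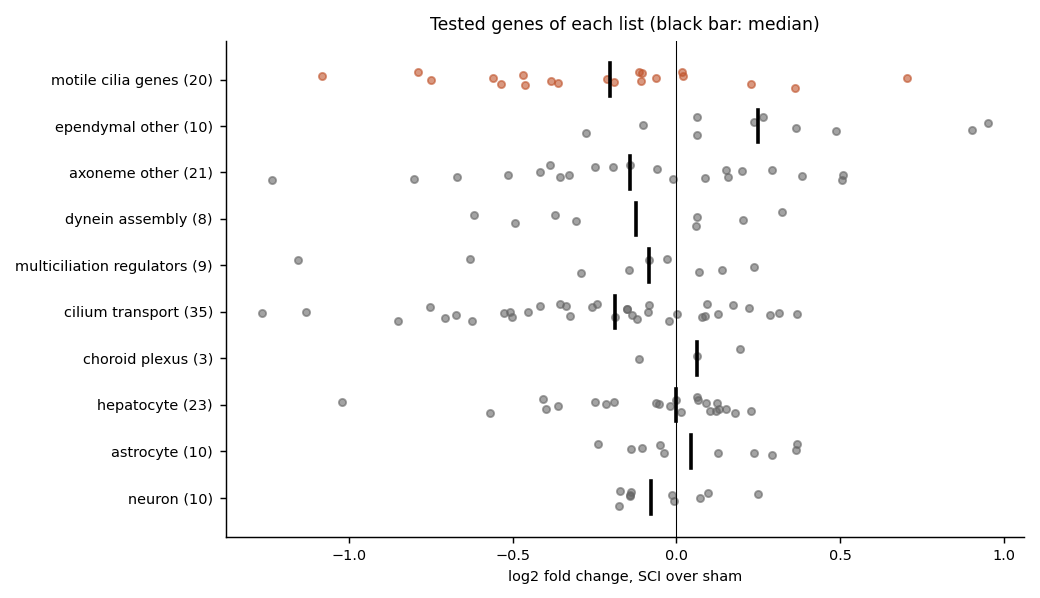
Log2 fold change of SCI over sham for the tested genes of each list, 1 point a gene, with a black bar at the median and the number of tested genes in brackets. The motile cilia genes centre at -0.20, the cilium transport genes at -0.19 and the ependymal markers outside the rule at 0.25.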

How the data were processed

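RNA was measured in 6 libraries, 3 sham and 3 SCI, prepared by QuantSeq Forward (Lexogen), a method that reads 3′ ends, so that a count does not scale with transcript length. The authors deposited whole-number counts per Ensembl gene without normalization. STAR 2.7.2b aligned the reads to mm10 with Ensembl 96, per the labels, and the submitters' processing notes also name DESeq2 1.24.0. Which tool counted the reads, and with which strand setting, is not given in the sources used here, so overlapping and antisense genes are uncertain.

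Symbols were matched to 42462 of 43432 identifiers (0.0884% of counts had none), and positions came from GENCODE M21. Genes passing filterByExpr (13560 of 21524 with a count) were scaled by TMM and compared by edgeR's quasi-likelihood test (edgeR 4.0.16, R 4.3.3), robust, with no covariates. Adjustment was Benjamini-Hochberg over all genes tested, and genes were called at 0.05. Standard errors were derived from the fold change and its F statistic (|log2 fold change| / √F), and intervals are 95%. The common biological coefficient of variation was 19.9%. The design text gives 3 mice per group, and no 2 libraries of a group agreed within sampling noise (chi-square per degree of freedom 6.97 to 38.0).

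The members and lists were chosen with earlier results of these data known. Genes named in full were Foxj1, Rfx2, Rfx3, the 2 most abundant members and the one with the smallest p in each role, and any member called or with an unadjusted p under 0.05. Members outside that rule, and genes of other lists named with values, were chosen after their values were seen. The procedure was run on simulated counts, with changes placed on genes drawn from all genes tested. The median level of all genes tested was 15.3 CPM, against 2.18 CPM for the tested members. The simulation therefore does not measure the power for the members. Alternatives were total counts, DESeq2 1.42.0, limma voom (limma 3.58.1), no filter (at least 1 count), a filter of 1 CPM in 3 libraries, the replicate number as a block, the hepatocyte level as a covariate, and leaving out each library.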

Additional observations from a re-analysis of the deposited data

How the results depend on the processing

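No motile cilia member was called under any of the 13 alternatives, and the members' median log2 fold change stayed between -0.34 and -0.15. Each alternative moved it from the -0.20 of the main fit by less than 0.19, the spread between libraries within a group. The number of members with a negative value was less steady. It ran from 11 of 20 without sham 1 to 17 of 20 with the hepatocyte level as a covariate. The members' smallest adjusted p over the alternatives was 0.184, with the hepatocyte level as a covariate. Named genes with values near 0 changed sign. With limma voom Cfap54 was at 0.12, with DESeq2 Dnaic1 was at -0.015, and with the hepatocyte covariate Dnaic1 was at -0.093. Leaving out single libraries gave -0.55 to 0.31 for Cfap54, -0.26 to 0.056 for Cfap69, -0.43 to 0.21 for Dnah9, -0.42 to 0.27 for Dnaic1, -0.37 to 0.073 for Rsph1 and -0.49 to 0.063 for Rsph4a. Other named genes kept their sign but not their size, among them Foxj1 (-0.84 to -0.16), Dnah7b (-0.62 to -0.24), Cfap298 (-0.51 to -0.22), Cfap36 (-0.32 to -0.035) and Dnaic2 (0.59 to 0.82).

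Over all genes, 120 were higher and 6 lower. The counts were 182 and 42 with no filter on low counts and 213 and 30 with the hepatocyte covariate, and 11 were lower with DESeq2. Without single libraries 62 (without sham 1) to 132 were higher and 1 to 14 lower (1 when sham 1 was left out, 12 and 14 for sham 2 and 3, and 3, 3 and 2 for SCI 1 to 3). Replicate numbers did not pair the libraries: deviations from the group means correlated at -0.08, -0.07 and -0.17 for numbers 1 to 3. With the replicate number as a block 81 genes were higher and 1 was lower, and no member was called. Depth limits the members: 26 of 46 were under the filter, at 0.234 to 1.36 CPM on average.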

Other observations

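From the genes outside the rule, 2 were singled out here after their values were seen. Tekt4, a tektin of the axoneme like Tekt1, was at 0.131, 0.289 and 0.271 CPM in sham and at 1.57, 1.01 and 1.59 CPM in SCI, on 33 counts. The groups did not overlap, as in 6.29% of all genes fitted with no filter for SCI above sham. Of the 21 tested genes on the same list of further axoneme genes, 13 had negative values. None of those 21 lay above sham without overlap, and 1 lay below. With no filter on low counts its log2 fold change was 2.51 ± 0.93 (SE; edgeR adjusted p = 0.300). Kcnj13, a potassium channel listed with choroid plexus, was at 2.76, 1.35 and 2.98 CPM in sham and at 0.242, 0.144 and 0.793 CPM in SCI. Fitted with no filter it was lower in SCI (-2.62 ± 0.75, edgeR adjusted p = 0.0449), on 53 counts, and it did not pass the filter used elsewhere. It was the 1 gene called of 9 choroid plexus markers fitted so, against 0.195% of all genes lower. Ttr, Aqp1, Clic6 and Slc4a5 were at 0.06, 0.19, 0.29 and 0.39, and Prlr was at -0.12. Kl, Folr1 and Kcne2, on 1 to 6 counts, were at -2.21, -0.003 and -1.85.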
